A study of Arabidopsis thaliana with 54 samples.

Results

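The response of Arabidopsis thaliana seedlings to 30 min with the auxin IAA (indole-3-acetic acid, 1 µM), set against Control seedlings of the same time, was described across all genes whose group mean reached 1 FPKM (reads scaled by gene length and by the size of the library) with IAA or in Control. This gave 9114 genes out of 10622 tested in the series and 23997 rows of the table. RNA of whole seedlings had been sequenced in 54 libraries, 3 for each of 18 groups. The groups were IAA, trans-zeatin (ZT, 1 µM), epibrassinolide (eBL, 1 µM), gibberellin A3 (GA3, 1 µM), guvermectin (GV, 10 µM) and Control, each at 5, 30 and 180 min. The comparison uses the 3 IAA and the 3 Control libraries at 30 min. No genotype, age or mock treatment of the Control is named in the labels. The p-values rest on the spread between replicate libraries within all 18 groups, since all 54 libraries entered the fit, and not on the compared libraries alone. Whether replicate libraries stem from seedlings grown apart is not stated, so this spread may be technical.

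Auxin acts in the nucleus by joining TIR1/AFB receptors to Aux/IAA proteins, which are then degraded. Aux/IAA proteins hold back the auxin response factors (ARFs), so their loss lets ARFs switch on target genes. Among the classic early targets are the Aux/IAA genes themselves, the GH3 genes, whose enzymes join auxin to amino acids, and the SAUR genes, whose small proteins promote cell expansion. In what follows IAA without a number is the compound and IAA5, IAA29 and the like are genes.

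The 6 libraries held 18.1 to 20.1 M reads as implied by the values, and the table's genes took up 36.1% to 39.2% of these. Apart from 209 rows with a series mean of 344 FPKM or more, the table ends at a mean of 10.5 FPKM, and genes of the range in between were not analysed here. The chi-square per degree of freedom between replicate libraries, which is 1 for counting error alone, was 2.53 to 3.90 among IAA libraries and 2.68 between Control replicates 2 and 3. It was 6.90 and 7.84 for the pairs with Control replicate 1, so that library stands apart from its group. Of 9114 members, 8324 reached 1 FPKM in both groups, 473 with IAA only and 317 in Control only. Genes of the last 2 kinds passed the filter through the group in which they were higher. At an adjusted p under 0.05, 146 of the 473 were called higher with IAA and 54 of the 317 lower. Of the 8324, 578 were called higher and 215 lower. Counts of a gene list or family that rose or fell, and its median, are thus in part set by the filter. The lowest-ranked member had 1.0002 FPKM in its higher group and the highest-ranked tested gene outside had 0.9998 FPKM. Markers of root and green tissue, as a whole seedling should hold, were both present, with 9 of 11 root markers and 19 of 19 photosynthesis markers at 1 FPKM or more.

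The windows upstream of a few of the genes that rose are shown first, because they hold the letters TGTCTC or TGTCGG, which are known as auxin response elements bound by ARFs. Each window is the 250 bases before the annotated gene start, from the TAIR10.1 genome (RefSeq), written 5′ to 3′ on the strand of the gene. Capitals mark TGTCTC with its reverse complement GAGACA, and also TGTCGG with its reverse complement CCGACA. IAA5 (chr1:5366498-5366747, minus strand) holds TGTCGG at -226, CCGACA at -97 and TGTCTC at -67, counted to the first base of the match from the gene start. SAUR66 (chr1:10320761-10321010, plus strand) holds TGTCTC at -170 and -111. ACS11 (chr4:4886712-4886961, plus strand), an ethylene synthesis gene, holds TGTCGG at -63 and TGTCTC at -52. IAA6 (chr1:19673653-19673902, minus strand) holds TGTCTC at -179, and SAUR15 (chr4:18125807-18126056, plus strand) holds GAGACA at -92.
IAA5: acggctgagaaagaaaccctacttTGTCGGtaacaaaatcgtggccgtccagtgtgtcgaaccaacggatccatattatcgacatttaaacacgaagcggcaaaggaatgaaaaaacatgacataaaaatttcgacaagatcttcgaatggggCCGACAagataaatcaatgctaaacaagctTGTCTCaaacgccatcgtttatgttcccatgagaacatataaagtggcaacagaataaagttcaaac
IAA6: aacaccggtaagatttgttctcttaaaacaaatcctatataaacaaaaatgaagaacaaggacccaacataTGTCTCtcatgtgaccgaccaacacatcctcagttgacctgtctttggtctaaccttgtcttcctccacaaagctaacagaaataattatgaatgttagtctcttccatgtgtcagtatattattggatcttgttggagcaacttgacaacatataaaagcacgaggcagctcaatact
SAUR66: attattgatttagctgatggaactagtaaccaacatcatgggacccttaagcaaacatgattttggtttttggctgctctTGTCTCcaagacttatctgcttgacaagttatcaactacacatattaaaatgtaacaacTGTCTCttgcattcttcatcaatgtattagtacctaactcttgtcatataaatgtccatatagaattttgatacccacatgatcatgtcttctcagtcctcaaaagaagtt
SAUR15: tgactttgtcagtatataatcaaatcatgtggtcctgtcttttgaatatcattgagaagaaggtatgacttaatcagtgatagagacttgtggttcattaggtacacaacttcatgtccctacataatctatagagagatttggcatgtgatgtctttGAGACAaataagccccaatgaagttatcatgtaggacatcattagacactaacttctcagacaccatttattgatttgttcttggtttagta
ACS11: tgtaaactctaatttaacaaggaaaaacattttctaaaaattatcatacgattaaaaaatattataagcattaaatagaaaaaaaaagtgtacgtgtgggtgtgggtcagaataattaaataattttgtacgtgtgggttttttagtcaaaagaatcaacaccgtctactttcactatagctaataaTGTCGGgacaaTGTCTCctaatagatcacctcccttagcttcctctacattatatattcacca

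A window was read for 8941 members. TGTCTC in either orientation lay in 15.4% of the 716 windows of genes higher with IAA, in 23.2% of the 138 windows of genes higher by over 1 on the log2 scale, and in 15.4% of the 259 windows of genes lower with IAA, against 10.8% of the 7966 windows of genes not called. The shares for TGTCGG were 5.45%, 9.42%, 3.09% and 4.71% in the same order. Of the 10 Aux/IAA genes that rose, 6 held TGTCTC and 7 held either motif. Of 26 SAUR genes that rose, 9 held either motif, while 15.5% of all 8941 windows did. The windows of LBD18, LBD29 and GH3.1, which rank among the largest rises, held neither. A match is a description of letters, and no test was made of these shares.

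At 30 min 724 members were higher with IAA (7.94%) and 269 were lower (2.95%) at a Benjamini-Hochberg adjusted p under 0.05 (limma on log2(FPKM + 1)). Genes that rose outnumbered those that fell most clearly among large changes. Of the members called, 139 were higher and 25 were lower by over 1 on the log2 scale. The median difference was 0.56 over the genes called higher and -0.55 over those called lower, beside 0.03 over all members. Without Control replicate 1 the counts were 624 and 242. Without eBL 30 min replicate 3, a library outside the comparison that is part of the fit, they were 1001 and 422. Higher genes made up 72.9% of calls, and 61.0% after quantile normalization (629 and 402) or 60.3% with library medians aligned (553 and 364). The IAA and Control libraries did not overlap in 30.3% of all members. They did not overlap in 713 of the 724 genes called higher and in 264 of the 269 called lower. Lack of overlap was also a condition for the genes named for the largest changes, so it is no further support for them.

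The single measured receptor gene was AFB4, at 6.35, 5.38 and 6.0 FPKM with IAA and 4.34, 5.21 and 4.73 FPKM in Control. Its difference of 0.26 ± 0.13 (SE, log2) did not pass (limma adjusted p = 0.24). Downstream of the receptors, 10 of 12 tested Aux/IAA repressor genes rose and none fell, with a list median of 1.12. The table holds 15 genes of this list, of which 12 were members. IAA5, IAA29, IAA6 and IAA30 averaged 0.227, 0.779, 0.626 and 0.908 FPKM in Control and were members through IAA only. The count and the median are in part set by that filter. IAA5 (AT1G15580, chromosome 1, 5365512 to 5366497, minus strand) had 16.5, 16.6 and 12.8 FPKM with IAA, against 0.128, 0.483 and 0.0699 FPKM in Control. The lowest IAA library stood far above every Control library, and the difference was 3.74 ± 0.21 (SE; limma adjusted p = 3.81e-18). It overlaps CYCA2-3, a cyclin gene on the opposite strand, and the use of strand in counting is not given.

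IAA29 had 9.35, 8.31 and 8.75 FPKM with IAA, against 0.815, 0.839 and 0.680 FPKM in Control. IAA6 had 5.36, 4.15 and 3.31 FPKM with IAA, against 0.930, 0.503 and 0.446 FPKM in Control. IAA11 had 19.4, 19.98 and 20.6 FPKM with IAA, against 8.63, 8.86 and 8.51 FPKM in Control. In all 3 the groups lay apart, and the differences were 2.46 ± 0.17, 1.69 ± 0.15 and 1.12 ± 0.11 (SE). The genes IAA30, IAA32 and IAA34 rose by 1.30, 1.27 and 1.13, and IAA20, IAA12 and IAA14 by 0.53, 0.45 and 0.44. These last 3 lost their call in several of the alternative settings. IAA10 (0.05) and IAA27 (-0.28) did not pass. IAA27 had 6.63, 8.53 and 7.86 FPKM with IAA and 10.2, 8.56 and 9.85 FPKM in Control.

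Of 7 ARF genes, the transcription factors that read the signal, ARF19 and ARF16 rose. ARF19 had 8.20, 8.31 and 8.71 FPKM with IAA, against 4.67, 3.42 and 3.86 FPKM in Control, a difference of 0.92 ± 0.14 (SE; limma adjusted p = 2.23e-06). ARF16 rose by 0.63 ± 0.09. The other 5 ranged from -0.02 (ARF9) to 0.34 (ARF11) and did not pass.

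Among genes that remove auxin, GH3.1 (AT2G14960, chromosome 2, 6451319 to 6453797, minus strand) had 6.32, 7.23 and 7.90 FPKM with IAA, against 0.111, 0.120 and 0.317 FPKM in Control. Its difference was 2.79 ± 0.14 (SE, limma adjusted p = 2.58e-19). Only 2 of the 11 genes of this list were members, GH3.1 and AT1G14130, so the rest of the list was not compared. AT1G14130, annotated as a 2-oxoglutarate and Fe(II)-dependent oxygenase, was at -0.32 and did not pass. For synthesis, 1 of 6 genes rose. That gene, YUC3, encodes a flavin monooxygenase of auxin synthesis and had 3.18, 2.78 and 2.26 FPKM with IAA, against 0.730, 0.698 and 0.738 FPKM in Control (1.11 ± 0.14). YUC6 (-0.37), YUC8 (-0.39), TAR2 (-0.18), CYP79B2 (0.04) and CYP79B3 (-0.09) did not pass.

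Of 7 tested transport genes 5 rose and none fell. WAG2, a kinase that acts on auxin efflux carriers, had 6.47, 4.81 and 6.59 FPKM with IAA, against 1.62, 1.18 and 1.53 FPKM in Control. The groups did not overlap, and the difference was 1.5 ± 0.16 (SE; limma adjusted p = 6.79e-10). PID, a related kinase, rose by 0.88 ± 0.17. PBP1 (AT5G54490), which encodes a calcium-binding partner of PID, had 12.1, 13.4 and 12.2 FPKM with IAA, against 1.61, 1.69 and 0.909 FPKM in Control (2.51 ± 0.20). It overlaps a noncoding gene on the opposite strand. LAX2, an influx carrier, and PIN2, an efflux carrier, rose by 0.69 and 0.36, and both lost their call in several alternative settings.

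LBD genes encode transcription factors, and LBD18 and LBD29 are known to act in lateral root formation. Of 10 tested, 3 rose and none fell. LBD18 (AT2G45420, chromosome 2, 18718348 to 18720729, plus strand) had 27.0, 25.9 and 27.3 FPKM with IAA, against 2.82, 3.21 and 2.80 FPKM in Control (2.82 ± 0.15, limma adjusted p = 9.35e-19). LBD29 had 6.99, 7.62 and 7.53 FPKM with IAA, against 0.512, 0 and 0.337 FPKM in Control (2.73 ± 0.13). Both groups lay far apart in each gene. LBD15 rose by 0.51, a call lost in 2 alternative settings. It had 1.90, 1.49 and 1.28 FPKM with IAA, against 0.947, 0.627 and 0.803 FPKM in Control. LBD29 and LBD15 were thus members through IAA only. Of 9 other genes of lateral root and patterning, MAKR4, a membrane-associated kinase regulator, rose by 2.25 ± 0.15, and TMO5, a bHLH factor of vascular tissue, by 1.01 ± 0.15.

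**Figure D1:**
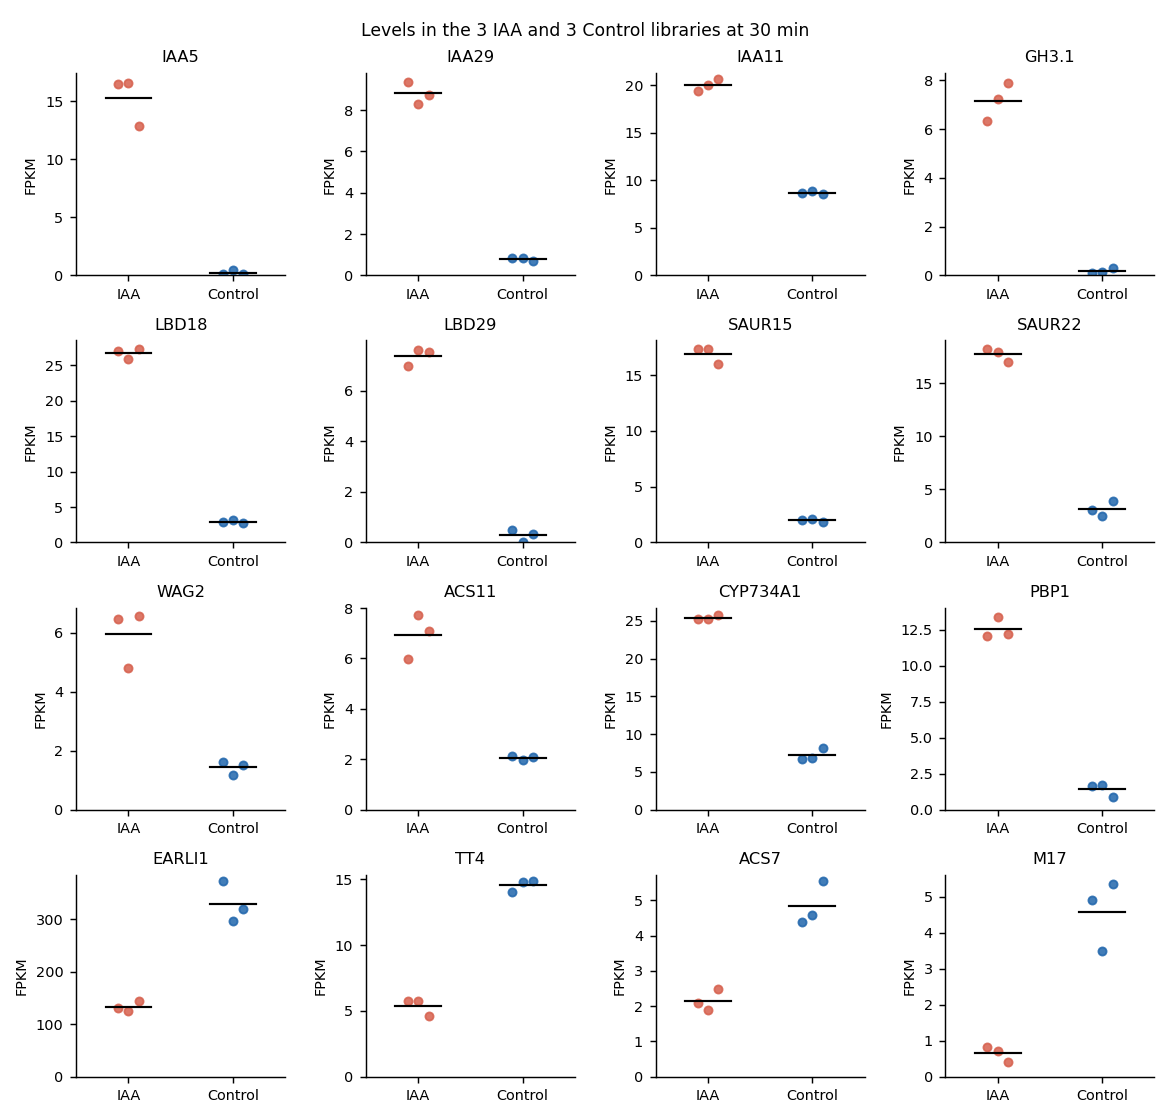
FPKM in each library for 16 genes, with IAA to the left of Control. Points are libraries and bars are group means, each axis starts at 0, and IAA and Control libraries do not overlap in any of the 16 genes, as in 30.3% of all members, with the last row (EARLI1, TT4, ACS7 and M17) lower with IAA.

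SAUR genes gave the most calls of any list, with 26 of 47 tested members higher, 2 lower and a median of 0.77. SAUR15 (AT4G38850) had 17.3, 17.3 and 16.0 FPKM with IAA, against 2.0, 2.09 and 1.84 FPKM in Control (2.59 ± 0.27, limma adjusted p = 1.16e-09). SAUR10 had 11.9, 12.5 and 15.2 FPKM with IAA, against 1.89, 1.36 and 1.44 FPKM in Control (2.47 ± 0.28). The groups lay apart in both, as in 30.3% of all members. AT4G31320 and AT1G75590 fell by 0.90 and 0.53. AT4G31320 had 1.44, 0.849 and 1.12 FPKM with IAA, against 2.92, 2.93 and 3.02 FPKM in Control. The call of AT1G75590 was lost in several alternative settings.

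The SAUR genes that rose were largely neighbours. Of the 26, 17 lie in 3 clusters, which were marked out after the values had been seen. On chromosome 1 (10302585 to 10323239) 7 of 7 tested SAUR genes rose, by 1.54 to 2.22. On chromosome 3 (976715 to 983768) 4 of 4 rose, by 1.85 to 2.31, and on chromosome 5 (5962773 to 5984308) 6 of 6 rose, by 1.46 to 2.19. SAUR62, at the chromosome 1 cluster's lower end, had 27.4, 26.6 and 23.6 FPKM with IAA, against 5.08, 3.87 and 5.43 FPKM in Control. SAUR22 on chromosome 5 had 18.3, 18.0 and 17.04 FPKM with IAA, against 3.07, 2.52 and 3.87 FPKM in Control. The spread within a group was small beside the gap between groups in both genes. Genes of a cluster are close copies, and how reads that match several copies were shared out is not given, so the values of single members are uncertain.

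Genes of other families lie between them. On chromosome 5 the lncRNA AT5G02865, between SAUR20 and SAUR21, had 2.56, 4.06 and 2.41 FPKM with IAA, against 0, 0 and 0.123 FPKM in Control (1.92 ± 0.17). DRT101, next to SAUR24, had 8.48, 9.14 and 8.45 FPKM with IAA, against 3.45, 4.32 and 3.99 FPKM in Control (0.98 ± 0.17). HTT2 and HTT3, of the same stretch, were at -0.30 and -0.18 and did not pass. On chromosome 1 the snoRNA genes AT1G06273 and AT1G06277, of 82 and 90 bases, were at 2.55 and 2.56 (limma adjusted p = 0.0036 and 0.0197), calls lost in 1 and 4 alternative settings. Both lie on the same strand inside AT1G29465 (0.81 ± 0.24, a call lost in 3 settings), so reads of the host cannot be told from theirs. They rest on 74 and 57 reads over the 3 IAA libraries, against 9 and 7 over the 3 Control libraries.

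**Figure D2:**
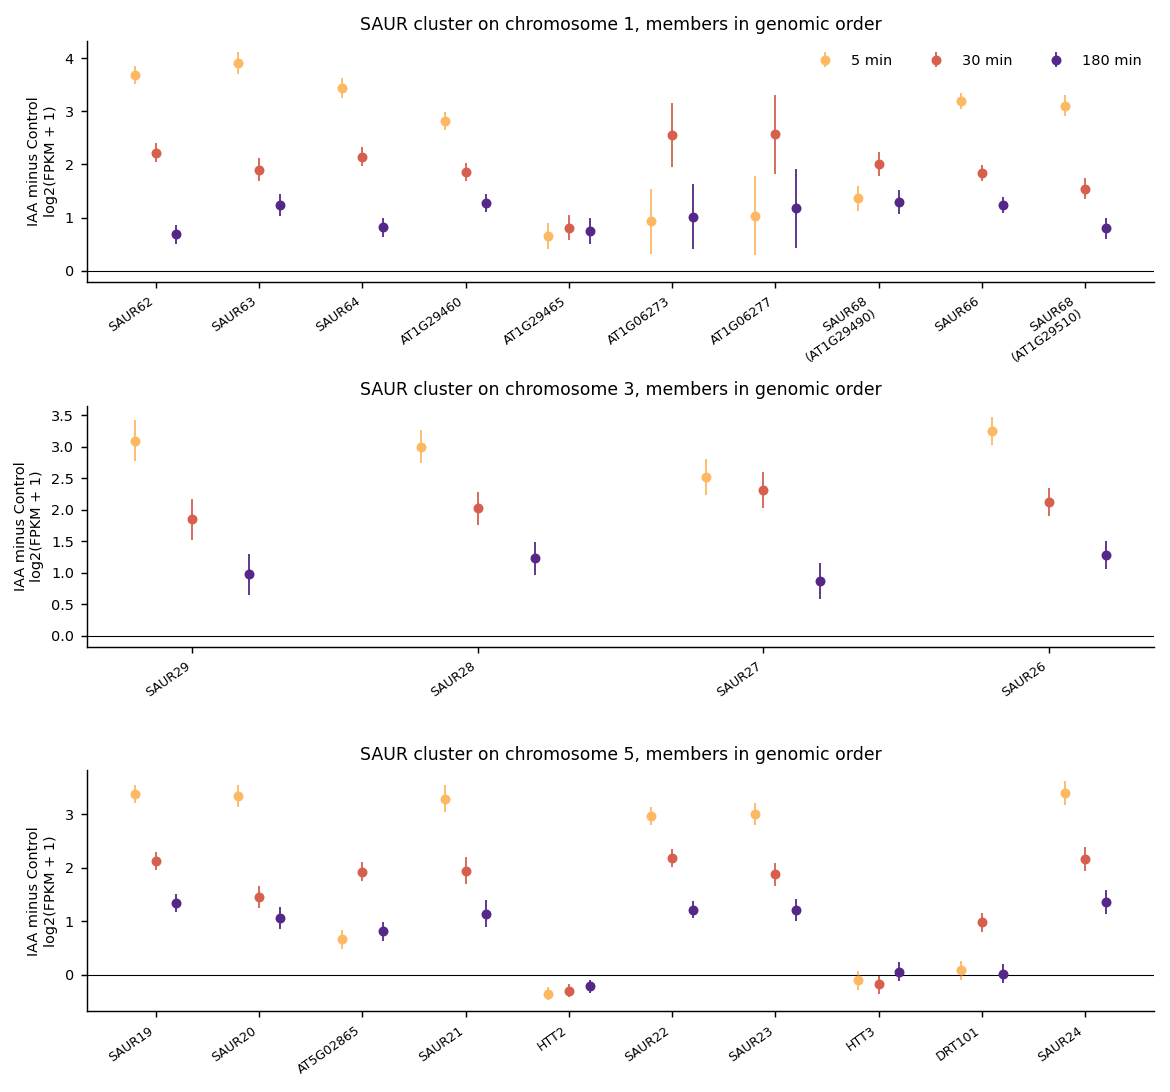
Difference of IAA minus Control on the log2(FPKM + 1) scale at 5, 30 and 180 min for every member in 3 SAUR clusters, in genomic order; error bars are standard errors. SAUR genes lie between 1.46 and 2.31 at 30 min, while HTT2 and HTT3 lie at -0.30 and -0.18.

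The effect at 30 min was larger than at 5 min in 517 members (5.67%) and smaller in 343 (3.76%, limma). The test was of the difference between the effects with their sign, so larger means higher and smaller means lower, here and below. A smaller effect can thus be a stronger fall, and of the 343 members 96 were genes that fell at 30 min. The SAUR and Aux/IAA lists leaned in opposite directions. Of 47 SAUR genes 16 had a smaller effect at 30 than at 5 min and 2 a larger one. Of 12 Aux/IAA genes 5 had a larger effect at 30 min and none a smaller one. In the clusters, 13 of 17 SAUR genes had a smaller effect at 30 min. All 17 were called higher at 5, 30 and 180 min, beside 7.75% of members at 5 min and 11.8% at 180 min. Their median difference was 3.19 at 5 min, 2.01 at 30 min and 1.22 at 180 min. SAUR63 had a difference of 3.91 at 5 min and 1.90 at 30 min (difference between effects -2.0, limma adjusted p = 8.3e-06).

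The Aux/IAA genes that rose at 30 min had medians of 0.40, 1.2 and 0.83 at 5, 30 and 180 min. IAA5 had 0.87, 3.74 and 2.01 at the 3 times. Its level averaged 0.961, 15.3 and 4.06 FPKM with IAA and 0.0674, 0.227 and 0.270 FPKM in Control at 5, 30 and 180 min. LBD18 had differences of 0.40, 2.82 and 3.44 and GH3.1 of 0.35, 2.79 and 2.76 at 5, 30 and 180 min. Each of the 3 differed between 30 and 5 min (limma adjusted p = 1.01e-09, 1.29e-11 and 2.81e-12). Between 30 and 180 min IAA5 differed (adjusted p = 3.84e-05), while LBD18 (adjusted p = 0.0538) and GH3.1 (adjusted p = 0.966) did not pass. Over all members, 441 had a larger effect at 30 than at 180 min (4.84%) and 475 a smaller one (5.21%). Which of these counts was the larger depended on scaling: they were 561 and 404 with library medians aligned and 526 and 465 after quantile normalization.

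**Figure D3:**
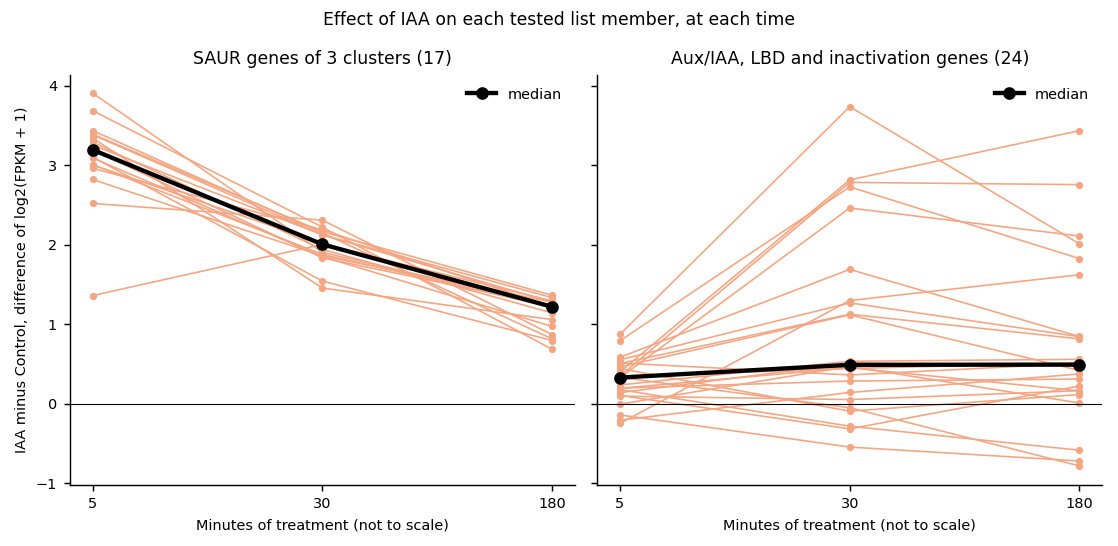
Difference of IAA minus Control on the log2(FPKM + 1) scale at 5, 30 and 180 min, 1 line per tested list member, with the SAUR genes of the 3 clusters on the left and Aux/IAA, LBD and auxin inactivation genes on the right. Black lines are medians, and on the left the median goes through 3.19, 2.01 and 1.22.

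Ethylene is made from ACC, by ACC synthases (ACS) and then ACC oxidases (ACO), and auxin is known to raise ACS genes. Of 7 genes 3 rose and 2 fell. ACS4 had 2.71, 2.52 and 1.76 FPKM with IAA, against 0.172, 0.124 and 0.126 FPKM in Control (1.53 ± 0.10, limma adjusted p = 1.78e-15). ACS11 had 5.99, 7.73 and 7.09 FPKM with IAA, against 2.14, 1.96 and 2.07 FPKM in Control (1.37 ± 0.16). ACS6 rose by 0.81 ± 0.14. A further synthase, ACS7, went the other way, at 2.09, 1.89 and 2.50 FPKM with IAA, against 4.38, 4.58 and 5.54 FPKM in Control (-0.89 ± 0.10, limma adjusted p = 1.14e-08). The groups did not overlap in any of these genes, as in 30.3% of all members. The oxidase gene ACO4 fell by 0.20, a call that several alternative settings lost.

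Genes of other hormones' metabolism were also called. Of 5 brassinosteroid genes 2 rose, and both encode enzymes that inactivate brassinosteroids. CYP734A1 had 25.2, 25.2 and 25.8 FPKM with IAA, against 6.68, 6.78 and 8.13 FPKM in Control (1.69 ± 0.13, limma adjusted p = 6.86e-14). CYP72C1 rose by 1.24 ± 0.14, while CYP90B1, of synthesis, was at 0.14 and did not pass. Of 8 gibberellin genes 4 rose. GA2OX8 and GA2OX6, which encode inactivating oxidases, rose by 1.63 and 0.44, and GA20OX1 and GA20OX2, of synthesis, by 1.00 and 0.77. GA2OX8 had 2.64, 2.53 and 1.66 FPKM with IAA, against 0, 0.0725 and 0.0735 FPKM in Control. The call of GA2OX6 was lost in 9 of the 17 alternative settings and that of GA20OX2 in 1. Across these settings 1 to 5 gibberellin genes rose.

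Of 9 cytokinin genes 1 rose and 2 fell, beside 7.94% and 2.95% of all members. CKX5, a cytokinin oxidase that degrades cytokinin, rose by 0.70 ± 0.19, a call lost in 4 alternative settings. IPT3, an isopentenyltransferase of cytokinin synthesis, had 1.33, 0.731 and 0.931 FPKM with IAA, against 1.82, 2.55 and 2.0 FPKM in Control (-0.65 ± 0.15). ARR16, a type-A response regulator, fell by 0.64 ± 0.13. Outside the list, and picked out after their values were seen, LOG7, an enzyme of cytokinin activation, rose by 0.92 ± 0.14 and CRF3, a cytokinin response factor, by 0.72 ± 0.15. None of the 5 abscisic acid synthesis genes in the table was a member.

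Of 23 expansin and xyloglucan enzyme genes, whose proteins loosen or rebuild cell walls, 7 rose and none fell, with a median of 0.24. XTH14 had 3.65, 2.78 and 3.07 FPKM with IAA, against 1.02, 1.06 and 1.08 FPKM in Control (1.02 ± 0.17). EXPA12, EXPA18 and XTH17 rose by 0.98, 0.98 and 0.89. EXPA12 and EXPA18 averaged 0.124 and 0.328 FPKM in Control and were members through IAA only. Of 4 PRE genes, small helix-loop-helix proteins of cell elongation, PRE1 and PRE5 rose by 1.12 and 0.75. These, too, were members through IAA only, at 0.753 and 0.287 FPKM in Control. Of 4 tested genes on a list of class II HD-ZIP factors ATHB2 rose (0.61), and HB17, a factor of that class outside the list and picked out after its value was seen, averaged 3.06 FPKM with IAA and 0.548 FPKM in Control (1.39 ± 0.16). Of 13 cell cycle genes 1 rose, near the share of 7.94% over all members. That gene, CYCA2-3, rose by 0.47, a call lost in 5 alternative settings, and it overlaps IAA5 on the opposite strand.

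**Figure D4:**
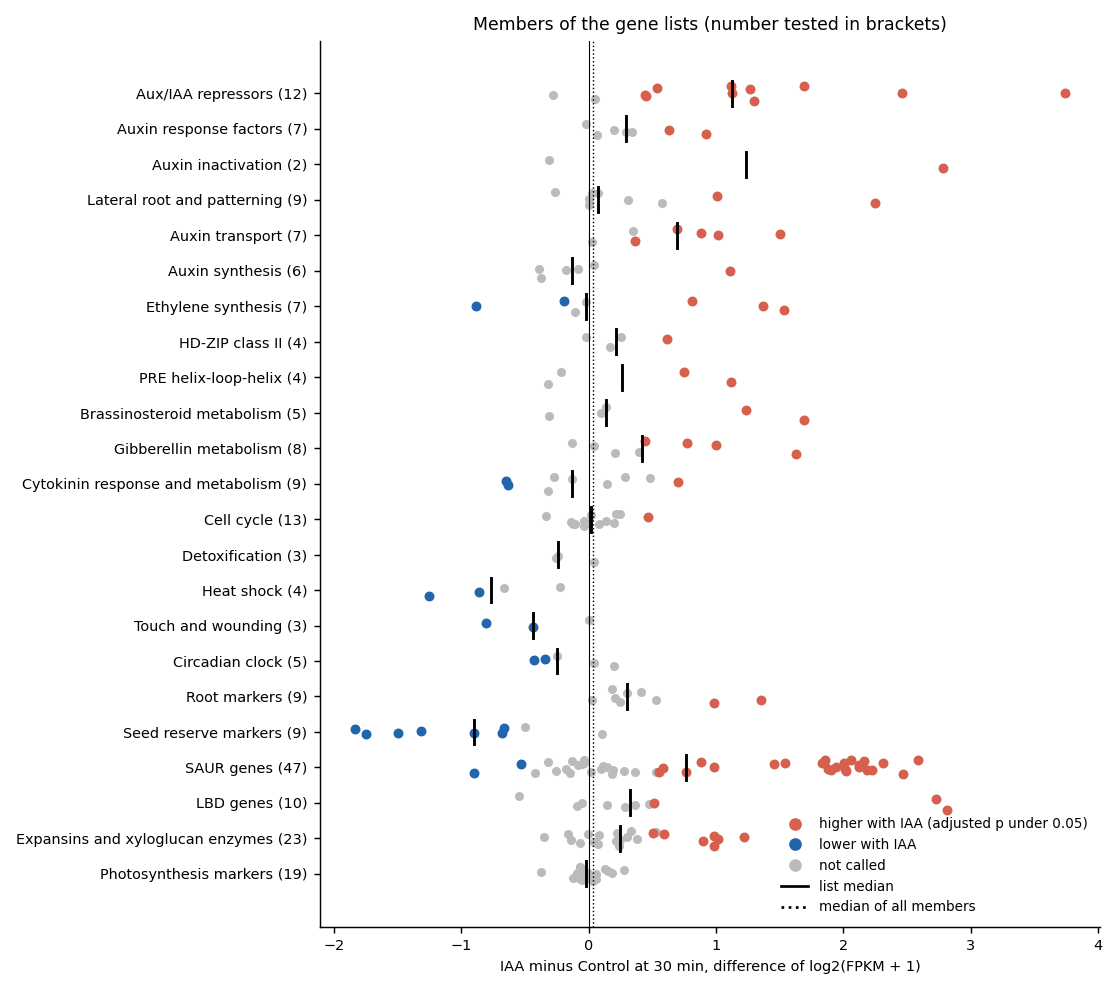
Difference of IAA minus Control at 30 min on the log2(FPKM + 1) scale for each tested member of the gene lists, coloured by call, with the list median as a black bar and the median of all members (0.03) dotted. Aux/IAA (median 1.12) and SAUR genes (0.77) lie to the right and seed reserve markers (-0.90) to the left.

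Of the markers of tissues and reserves, most of those of seed reserves and some of those of root differed, while no photosynthesis marker was called. Of 9 root markers 2 were called (PRP3, 1.36, and EXPA18, 0.98), and 0 to 3 across the alternative settings. All 9 were above 0, with a median of 0.30. Their summed level was 27.7 to 29.0 FPKM with IAA and 18.8 to 19.2 FPKM in Control. Of 19 photosynthesis markers 0 were called, with a median of -0.02, and their sums of 74807 to 77424 FPKM with IAA lay within the 70941 to 83969 FPKM of Control. Of 9 seed reserve markers 7 fell, with a median of -0.90. Their sums were 2377 to 2439 FPKM with IAA and 3487 to 3725 FPKM in Control, a gap that lay in ICL, since the other 8 summed to 356 to 365 FPKM with IAA and 349 to 356 FPKM in Control. No marker in the table was at 0 in all 6 libraries. In whole seedlings fewer cells of a type and less RNA per cell cannot be told apart, and the part of these markers in the other results was not tested.

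Among the seed reserve genes, M17, a late embryogenesis abundant gene, had 0.826, 0.714 and 0.423 FPKM with IAA, against 4.90, 3.5 and 5.37 FPKM in Control (-1.75 ± 0.15, limma adjusted p = 2.43e-12). SESA3, a 2S albumin, had 0.288, 0.595 and 1.11 FPKM with IAA, against 4.74, 4.35 and 5.4 FPKM in Control (-1.83 ± 0.17). ICL, isocitrate lyase of the glyoxylate cycle, fell by 0.68 ± 0.07, with 2037 ± 39.6 FPKM with IAA and 3262 ± 123 FPKM in Control (SD, n = 3 each). All 3 genes had groups that did not overlap. SESA3 is a close copy of other albumin genes, so its reads may be split.

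Other genes with large falls belong to several functions. EARLI1 (AT4G12480, chromosome 4, 7406065 to 7406994, minus strand), a lipid-transfer protein, had 131, 125 and 144 FPKM with IAA, against 373, 297 and 321 FPKM in Control (-1.30 ± 0.10, limma adjusted p = 3.39e-13). TT4, chalcone synthase of flavonoid synthesis, had 5.78, 5.72 and 4.62 FPKM with IAA, against 14.0, 14.8 and 14.8 FPKM in Control (-1.29 ± 0.16). HSP21, a chloroplast small heat shock protein, had 2.76, 2.48 and 2.39 FPKM with IAA, against 7.70, 7.72 and 7.0 FPKM in Control (-1.26 ± 0.15). Each of the 3 separates the groups, which was a condition for the largest falls named here and held in 30.3% of all members. CRK13, a receptor-like kinase, fell by 1.02 ± 0.15, AGL67, a MADS-box factor, by 0.95 and the RING protein gene ATL77 by 0.97. AT1G54870, AT1G65500, AT4G23493 and AT1G04560 fell by 1.27, 1.19, 1.00 and 0.94. The precursor gene MIR169b fell by 1.25 (adjusted p = 0.0389), a call that several settings lost. The mitochondrial NAD5B row covers 22 bases and rests on 1 read with IAA and 12 in Control, so its -2.56 rests on counts of that size. Of 4 heat shock genes HSP21 and HSP26.5 (-0.86) fell, of 3 touch genes ZAT10 (-0.80) and WRKY40 (-0.44), and of 5 clock genes LHY (-0.34) and RVE8 (-0.43). The calls of RVE8, LHY and WRKY40 were lost in 5, 3 and 3 alternative settings, and 0 to 2 clock genes fell across them. No gene of these 3 lists rose, and none of 3 detoxification genes was called.

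Set directly against the other compounds at 30 min, 225 members (2.47%) were higher with IAA than in each of the other 5 groups, and 35 (0.384%) were lower than in each. The 5 contrasts share the IAA libraries. The GV columns were matched to their samples by elimination of the other names, so each GV value rests on that match. Among those above all others were 8 of 12 Aux/IAA genes, 15 of 47 SAUR genes and 2 of 10 LBD genes. LBD18 averaged 26.7 FPKM with IAA, against 2.65 with GV, 2.98 with ZT, 2.03 with eBL, 2.41 with GA3 and 2.94 FPKM in Control. SAUR15 averaged 16.9 FPKM with IAA, 14.6 with eBL and 1.27 to 2.39 FPKM in the other 4 groups. Its eBL libraries had 8.15, 10.2 and 25.5 FPKM, the last being eBL replicate 3, and without that library the eBL mean was 9.18 FPKM. For SAUR15 the difference of IAA minus eBL was 0.36 ± 0.27 (limma adjusted p = 0.296), and without eBL replicate 3 it was 0.82 ± 0.26 (adjusted p = 0.0121). For YUC3 it was 0.04 ± 0.14 (adjusted p = 0.827) and, without that library, -0.19 ± 0.13 (adjusted p = 0.289). For CYP734A1, with 15.4 FPKM with eBL, it was 0.72 ± 0.13 (adjusted p = 1.06e-05) and, without that library, 0.48 ± 0.11 (adjusted p = 0.000762). ARF19 averaged 8.41 FPKM with IAA and 9.14 FPKM with ZT (-0.11 ± 0.14, adjusted p = 0.571).

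Few of the fallen genes were also below the other compounds. M17 averaged 0.654 FPKM with IAA, against 1.95 to 5.31 FPKM in the other 5 groups, and was below each of them. EARLI1 averaged 133 FPKM with IAA, against 212 with GV, 911 with ZT, 1256 with eBL, 1112 with GA3 and 330 FPKM in Control. CRK13, ACS7 and IPT3 were likewise below each of the other 5 groups. BCB, a blue copper protein, GASA1, a gibberellin-regulated peptide, and ACO4 were too, with smaller differences from Control of -0.54, -0.35 and -0.20, of which that of GASA1 lost its call in 7 alternative settings and that of ACO4 in 6. TT4, HSP21, SESA3 and ICL were not. TT4 averaged 5.37 FPKM with IAA, above 2.18 with GV (1.01 ± 0.16, adjusted p = 4e-06) and 2.53 with ZT. ICL with IAA was above each of the other 4 compounds, by 0.52 to 1.6, and below Control. HSP21 had 0.351 FPKM in Control at 5 min and 7.47 FPKM in Control at 30 min, and ICL had 413 and 3262 FPKM in Control at these times.

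**Figure D5:**
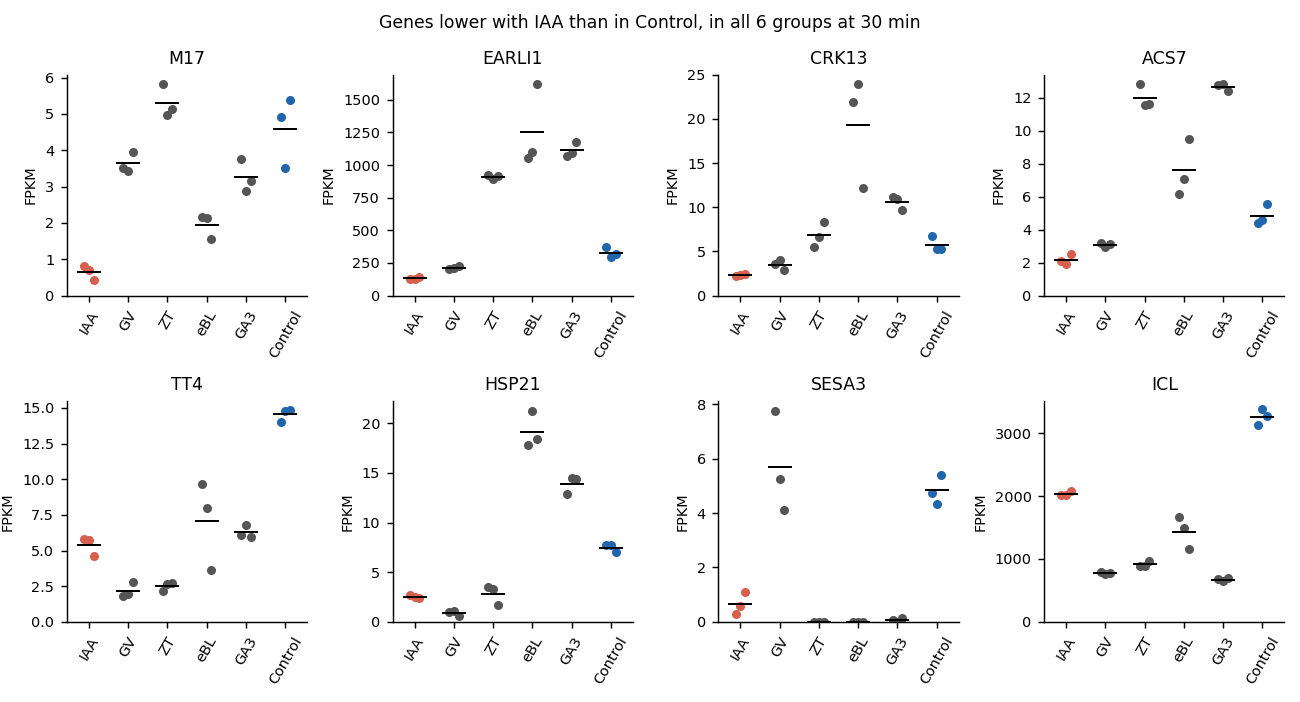
FPKM in each library of the 6 groups at 30 min for 8 genes lower with IAA than in Control; points are libraries and bars are means. In the upper row (M17, EARLI1, CRK13 and ACS7) IAA is the lowest group, and in the lower row (TT4, HSP21, SESA3 and ICL) at least 1 other compound lies below IAA.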

How the data were processed

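RNA of whole seedlings was sequenced, and the authors deposited 1 table whose FPKM values they made from the reads. Bowtie2 2.2.3 and the TAIR10 build are named per the submitters' processing notes; which program counted the reads, and whether by strand, is not given in the sources used here. The table's header names no unit. The values were identified as FPKM because each, times the gene length beside it, was a whole number of reads (100% at a tolerance of 0.05). Because the columns for GV carry a name of their own, they were matched by elimination. Of 24000 lines, 3 were damaged and left out, and no per-sample column was unmatched (0). Gene names and TAIR10.1 locations came from RefSeq, with 23498 rows matched and 99.9% of them at the table's own start and end.

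The 10622 genes whose mean reached 1 FPKM in some group entered a limma fit (version 3.58.1, R 4.3.3; trended, robust variances) of log2(FPKM + 1) over all 54 libraries, 36 residual degrees of freedom, and p-values were Benjamini-Hochberg adjusted. Differences are on that scale, which understates changes of low genes. Called means an adjusted p under 0.05. Rose and fell are used of called genes, for IAA against Control of the same time. The steps were tested on simulated data. Members and lists were chosen with earlier results of these data known. Named genes were called, did not overlap between groups and had at least 5 FPKM in the higher group (the 12 largest changes each way), were the 5 largest differences between times each way, were in the auxin or ethylene synthesis lists, or had the 4 smallest p-values of another list; the genes between SAUR genes, BCB, GASA1, HB17, LOG7, CRF3 and the families under the other observations were chosen after their values were seen. AT5G01830, an ARM-repeat protein by its annotation, was left out of the SAUR list. Alternatives covered the pseudocount, filter, scaling, libraries in the fit, replicate block and each replicate left out; voom on recovered reads was added after seeing the data. 1 item of the auxin transport list is not reported by itself here.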

Additional observations from a re-analysis of the deposited data

Results flagged for a closer look

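The effect of IAA differed between 30 and 5 min by the test of the difference itself in the 5 genes with the largest change each way that reached 5 FPKM in 1 of the groups. Taken with its sign, it was higher at 30 min for UGT74E2, a glucosyltransferase of indole-3-butyric acid, by 2.89 on the log2 scale. It was also higher for IAA5 by 2.86, for GH3.1 by 2.44, for RTFL13 by 2.42 and for LBD18 by 2.42. UGT74E2 stands apart from the other 4, since its effect was -2.85 at 5 min, 0.04 at 30 min and 1.45 at 180 min. It had 2.62, 7.32 and 19.8 FPKM with IAA and 24.9, 7.08 and 6.68 FPKM in Control at 5, 30 and 180 min. The effect was lower at 30 min for NAD5B (-3.71), SAUR63 (-2.00), SAUR20 (-1.88), TT4 (-1.74) and HB52, a homeobox factor (-1.57). TT4 and HB52 were lower with IAA at 30 min and had effects of 0.45 and 0.77 at 5 min.

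Between 30 and 180 min the effect was higher at 30 min for IAA5 (1.73), SAUR62 (1.54) and SAUR27 (1.44). It was also higher for AT4G19530, a disease resistance protein gene of the TIR-NBS-LRR class (1.72), and for AT1G65190, a kinase (1.41). AT4G19530 and AT1G65190 had effects of 0.42 and 0.10 at 30 min and -1.30 and -1.31 at 180 min. The effect was lower at 30 min for HSP21 (-2.75), AT1G49700 (-2.30) and AGL67 (-2.10). It was also lower for AT2G23110, a late embryogenesis abundant gene (-2.16), and for the RING protein gene AT1G24580 (-2.11). HSP21, AT2G23110, AT1G24580 and AGL67 fell at 30 min and had effects of 1.49, 1.41, 1.35 and 1.15 at 180 min. The fall of AT1G24580 lost its call in 8 alternative settings. HSP21 averaged 2.54 and 2.28 FPKM with IAA and 7.47 and 0.169 FPKM in Control at 30 and 180 min.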

How the results depend on the processing

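No called gene named here changed direction in any setting, but counts moved. Members with a larger and a smaller effect at 30 than at 180 min numbered 441 and 475, and the larger effects became the more frequent with medians aligned (561 and 404), quantile normalization (526 and 465), a minimum of 5 FPKM (298 and 256), a pseudocount of 0.1 (381 and 375), only IAA and Control libraries (656 and 642) and without eBL 30 min replicate 3 (687 and 677). With a minimum of 5 FPKM, which leaves 4171 members, there were 401 higher and 168 lower, 319 with a larger effect at 30 than at 5 min, 256 with a smaller effect at 30 than at 180 min, and 138 higher and 22 lower than each of the other 5 groups. Without eBL 30 min replicate 3 there were 422 lower, 795 with a larger and 558 with a smaller effect at 30 than at 5 min, 687 with a larger effect at 30 than at 180 min, and 54 lower than each of the other 5 groups. With only IAA and Control libraries in the fit there were 421 lower and 572 with a smaller effect at 30 than at 5 min. Genes lower than each of the other 5 groups numbered 56 after quantile normalization, 68 with medians aligned and 23 with voom (667 higher and 201 lower than Control). With 1 replicate left out, 501 to 624 members were higher and 170 to 242 lower than Control, 170 being without IAA replicate 3; 412 to 472 and 259 to 313 had a larger or smaller effect at 30 than at 5 min, 333 to 420 and 360 to 451 than at 180 min, and 194 to 205 and 24 to 33 were higher or lower than each of the other 5 groups.

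Same-numbered IAA and Control libraries did not deviate together (correlations -0.00, 0.04 and -0.06). The labels do not say whether the numbers pair libraries, and these correlations cannot settle it. The replicate block gave 726 higher and 267 lower.

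The SAUR list gave 22 to 28 higher and the Aux/IAA list 7 to 10 across the 17 alternatives; the cause of such shifts was not tested. Seed reserve genes gave 1 to 8 lower, the 1 with the 5 FPKM minimum, which leaves few of them. With 3 libraries a group and 1 read in a 1 kb gene worth about 0.05 FPKM, differences of low genes may be missed.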

Other observations

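Small peptide genes of the ROTUNDIFOLIA-like/DVL family, known to restrict cell proliferation and organ growth when overexpressed, were prominent among the rises and were picked out after their values had been seen. Of 8 members 5 rose and 1 fell, with a median of 1.6. RTFL13 (AT3G23635, chromosome 3, 8497679 to 8498390, minus strand) had 11.9, 14.2 and 12.3 FPKM with IAA, against 0.350, 1.21 and 0.996 FPKM in Control (2.92 ± 0.19). Its neighbour DVL21, on the same strand, had 5.12, 5.33 and 8.58 FPKM with IAA, against 0.307, 0 and 0 FPKM in Control (2.72 ± 0.27). The groups lay apart in both, as in 30.3% of all members. RTFL19, RTFL10 and RTFL15 rose by 2.05, 1.83 and 1.36, while RTFL8 fell by 0.52 and was below each of the other 5 groups at 30 min.

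Further families by annotation, also chosen after their values were seen, were DUF241 proteins (6 of 10 rose, none fell), membrane-associated kinase regulators (5 of 10 rose), NPH3 proteins (4 of 18 rose, 1 fell), peroxidases (6 of 21 rose, 2 fell), cytochrome P450 genes (19 of 73 rose, 5 fell) and kinases (60 of 504 rose, 13 fell). Of 69 ribosomal protein genes 0 rose and 7 fell, and of 314 pentatricopeptide and tetratricopeptide repeat genes 13 rose (4.14%) and 0 fell. Over all members 7.94% rose and 2.95% fell. The uncharacterized AT5G66580 had 42.7, 41.6 and 38.9 FPKM with IAA, against 6.34, 6.49 and 7.28 FPKM in Control, and its effect was already 3.31 at 5 min. The uncharacterized AT4G37295 had 21.9, 24.3 and 21.3 FPKM with IAA, against 2.63, 2.84 and 2.26 FPKM in Control. AT1G67900, an NPH3 family gene, had 32.6, 30.4 and 33.6 FPKM with IAA, against 7.89, 8.12 and 6.83 FPKM in Control. CLE44, which encodes the peptide TDIF that keeps vascular stem cells from becoming xylem, had 8.24, 8.39 and 8.95 FPKM with IAA, against 1.52, 2.02 and 1.52 FPKM in Control (1.83 ± 0.16). These genes were above each of the other 5 groups at 30 min. Genes called higher had a median gene length of 1973 bases and those called lower of 1274, beside 1776.5 over all members.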
